A study of Mus musculus with 4 samples.

Results

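The Cd300 genes encode a family of cell surface receptors with a single immunoglobulin-like domain, and most of them lie side by side on mouse chromosome 11. Expression of 6 of these genes, Cd300a, Cd300e, Cd300lb, Cd300ld, Cd300lf and Cd300lg, was examined in infarcted mouse hearts, out of 19505 genes named on the arrays. The members were chosen by symbol after values of the same comparison, in particular those of Cd300ld, had been seen. Their differences between the groups are therefore given as a description, with no test.

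Whole hearts of 4 male mice were profiled on Affymetrix arrays, 3 months after ligation of the left coronary artery. The mice were 8 weeks old at surgery. Both groups carried Tcf21iCre, a Cre recombinase named for the fibroblast gene Tcf21, and a Tomato reporter. The control group (Ctrl-MI) held 2 hearts of genotype Tcf21iCre/Tomato, and the transgenic group (TTg-MI) held 2 hearts of genotype Tcf21iCre/Tomato/MGTH2A, described by the submitters as independent biological replicates. MGTH2A is known to join the coding sequences of Mef2c, Gata4, Tbx5 and Hand2, factors of heart development, and the study's title names reprogramming of cells toward heart muscle in chronic infarction as its subject. Mice whose ejection fraction stayed high soon after surgery had been left out by the submitters. All 4 hearts were infarcted, so no value here describes an uninjured heart, and each value mixes muscle, fibroblasts, vessels and blood-derived cells.

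Cd300 receptors are known as paired receptors: some members carry inhibitory tyrosine motifs (ITIMs) in their tails and recruit phosphatases, and others have short tails and signal through adaptor proteins that engage the kinase Syk. Several members bind lipids exposed on dying cells, such as phosphatidylserine, phosphatidylethanolamine, ceramide or sphingomyelin, and tune phagocytosis and cytokine release by macrophages, neutrophils, mast cells and dendritic cells. Cd300lg, also called nepmucin, is the exception in being known from capillary endothelium and not from myeloid cells, so the family's usual description as myeloid covers the other 5 members.

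Values are on the deposited log2 scale, where 1 unit is a 2-fold difference, and levels are not compared between genes, because each gene is read by its own probes. The array medians ran from 6.55 to 6.62. No detection call was given, so the level of unexpressed genes was read from 1414 probes for olfactory and vomeronasal receptors, and a value above the 95th percentile of these on its array (5.74 to 5.79) is called above background. Cardiomyocyte markers were above background for 7 of 7 genes on every array. Of the 4 factor genes, 2 had higher TTg-MI values without overlap, Tbx5 (7.62 and 7.88 against 10.68 and 9.72) and Mef2c (12.67 and 13.02 against 16.01 and 13.97). The groups overlapped for Gata4 (13.39 and 13.74 against 14.07 and 13.38) and for Hand2 (9.09 and 8.24 against 9.94 and 8.93). None of the 4 passed limma over all probes (adjusted p 0.530 to 0.934). Across probes the second Ctrl-MI array correlated more closely with either TTg-MI array (0.989 and 0.991) than with the other Ctrl-MI array (0.987), and its atrial marker mean was 9.30, against 13.15 to 15.10 on the other arrays. How much atrial tissue each sample held was not analysed here. In limma with Benjamini-Hochberg adjustment, 1 of 22206 probes (0.00450%) passed an adjusted p of 0.05. It was that of Bmp10, a growth factor gene of atrial muscle, at 5.31 and 5.39 in Ctrl-MI and 12.38 and 11.82 in TTg-MI. Without Ctrl-MI replicate 2 the count was 332. In that fit the control arm is 1 array, which is assumed to vary like the TTg-MI pair.

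Cd300ld stood apart from the rest of the family. It was lower in TTg-MI hearts, while Cd300a, Cd300lf and Cd300lg overlapped between the groups and Cd300lb and Cd300e lay at background. Of the 6 members, 4 were above background on all 4 arrays. The TTg-MI mean was lower for 3 members and higher for 3, and the median log2 difference (TTg-MI mean minus Ctrl-MI mean) over the 6 was -0.09, beside 0.0114 over all probes. The groups did not overlap for 2 members, Cd300ld and Cd300e, each with the lower values in TTg-MI, and 0 members lay apart with the higher values there. Over all probes the groups lay apart in these directions for 18.7% and 19.4%. In a whole heart, fewer cells of a type and less RNA per cell cannot be told apart.

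**Figure D1:**
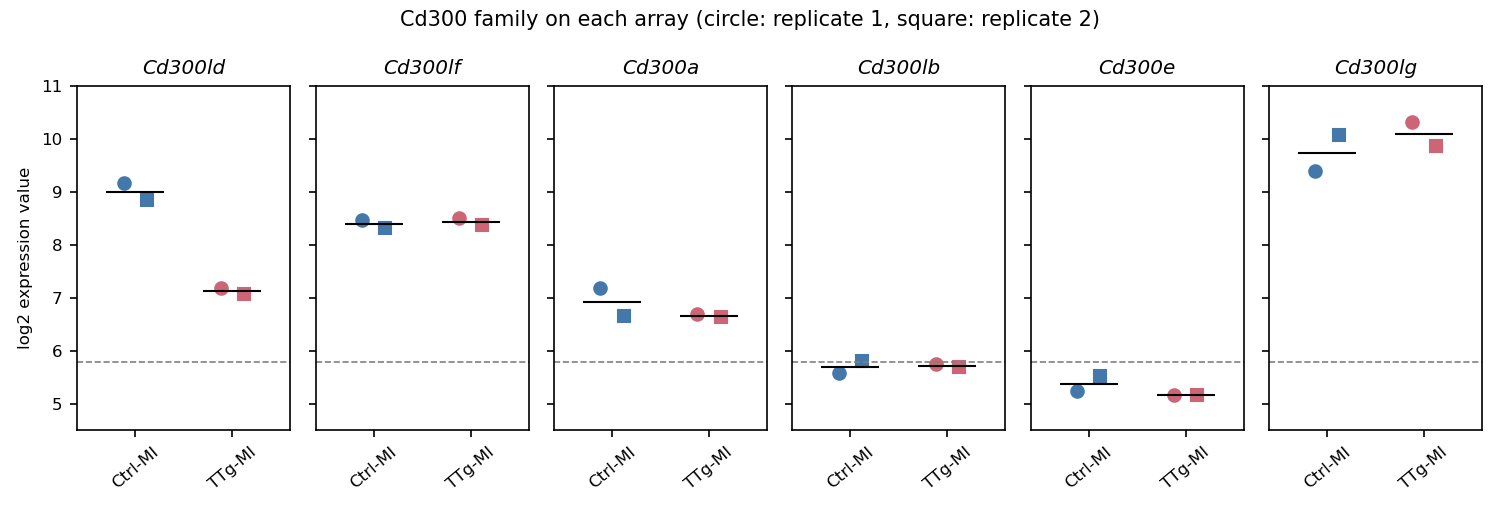
Log2 expression value (vertical axis) of the 6 members on each array, with Ctrl-MI in blue, TTg-MI in red, circles for replicate 1, squares for replicate 2, and black bars at the group means of 2 arrays. The dashed line marks the highest background level of the 4 arrays, 5.79; Cd300ld has means of 9.0 and 7.13, Cd300lf lies between 8.31 and 8.50, and Cd300e lies under the line on all 4.

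Cd300ld, also named CLM-5 or MAIR-IV, is an activating receptor of myeloid cells that signals through the Fc receptor gamma chain. Its values were 9.17 and 8.84 on the Ctrl-MI arrays and 7.18 and 7.08 on the TTg-MI arrays. The groups were separate, and the arrays within each group lay close together, 0.33 apart in Ctrl-MI and 0.09 apart in TTg-MI. The means were 9.0 ± 0.23 and 7.13 ± 0.07 (SD, n = 2 per group). TTg-MI was thus 3.67-fold lower, by a log2 difference of -1.88 (SE 0.18). Each SE here is that of the limma fit, which draws a gene's variance toward that of all probes. A TTg-MI mean at least 2-fold lower was seen for 1.41% of all probes. Because Cd300ld was chosen with its difference in view, this share does not measure how unusual that difference is. All 4 values were above background. With single arrays left out the difference ran from -2.04 to -1.71, and as the values behind it helped to choose the gene, this range describes these 4 arrays only.

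Cd300lf, or CLM-1, carries inhibitory motifs and is known to restrain macrophages and mast cells. It was measured at 8.47 and 8.31 in Ctrl-MI and at 8.50 and 8.38 in TTg-MI. These 4 values spanned 0.19 log2 units, were all above background and overlapped between the groups. The log2 difference was 0.05 (SE 0.16), and ran from -0.03 to 0.13 when single arrays were left out.

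Cd300a, or CLM-8, is the family's other inhibitory receptor and binds phosphatidylserine and phosphatidylethanolamine. It read 7.19 and 6.65 in Ctrl-MI and 6.69 and 6.64 in TTg-MI. Ctrl-MI replicate 1 was the high value, and the other 3 arrays lay together. The difference was -0.26 (SE 0.22) with all arrays. It was 0.01 without that array and -0.53 with the other Ctrl-MI array left out.

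Cd300lb and Cd300e are activating receptors known to pair with the adaptor DAP12. Cd300lb was at 5.57 and 5.80 in Ctrl-MI and 5.74 and 5.69 in TTg-MI, and 1 of these 4 values, that of Ctrl-MI replicate 2, was above background. Cd300e was at 5.24 and 5.52 in Ctrl-MI and at 5.17 on both TTg-MI arrays. All of its values were at the background level. Although its groups did not overlap, no fold is given for Cd300e, and for both genes a difference was not detectable at this signal.

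Cd300lg, the endothelial member, was at 9.39 and 10.07 in Ctrl-MI and at 10.32 and 9.87 in TTg-MI. The groups overlapped, with Ctrl-MI replicate 1 the low value. The difference was 0.37 (SE 0.29). Leaving out a Ctrl-MI array gave 0.03 (replicate 1 out) or 0.71 (replicate 2 out), and leaving out a TTg-MI array gave 0.14 or 0.59 in the same order. Beside it, the 12 endothelial markers were all above background, with list means between 11.62 and 11.82 in Ctrl-MI and 11.67 on both TTg-MI arrays. Of the 12, 7 had a lower and 5 a higher TTg-MI mean, with a median log2 difference of -0.08, or -0.30 without Ctrl-MI replicate 2. The receptor tyrosine kinases Kdr (0.64, SE 0.26) and Tie1 (0.69, SE 0.24) had higher TTg-MI values with no overlap. The adhesion molecule Pecam1 (-0.56, SE 0.19) and the lipase anchor Gpihbp1 (-0.51, SE 0.19) had lower ones. The groups thus lay apart with TTg-MI lower for 2 of the 12 and higher for 2, near the 18.7% and 19.4% of all probes. In limma 0 of the 12 passed over all probes.

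**Figure D2:**
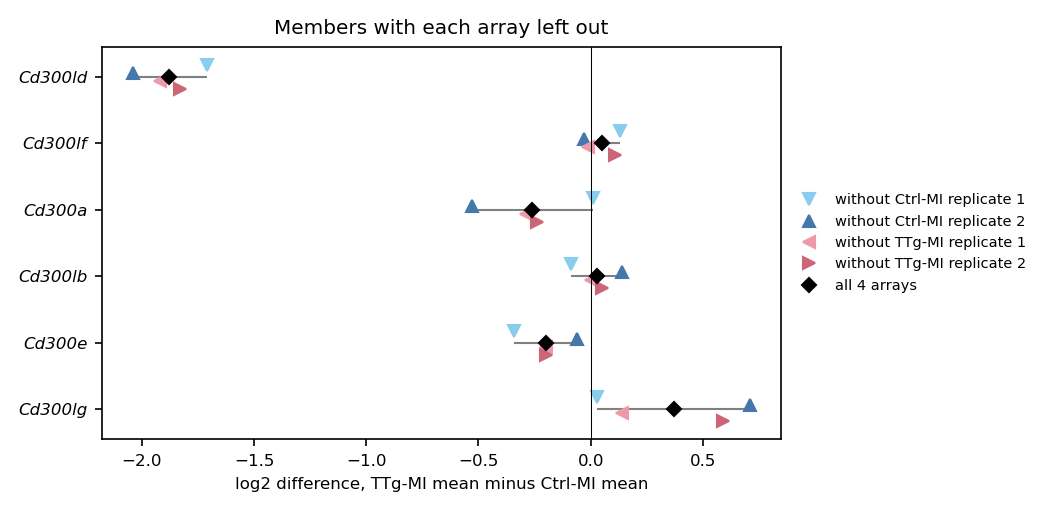
Log2 difference between the TTg-MI and Ctrl-MI means (horizontal axis) for each member, with all 4 arrays (black diamonds) and with 1 array left out (coloured triangles), and grey lines joining the lowest and highest of the latter. Cd300ld stays between -2.04 and -1.71, whereas Cd300a, Cd300lb and Cd300lf reach both sides of 0.

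The promoter of Cd300ld is shown with those of Cd300lf, which did not share its difference between the groups, and of Cd300ld4. The latter lies in the same cluster and has a promoter window much like that of Cd300ld. The windows run from 250 bases before to 20 bases after the annotated start, 5′ to 3′ on the minus strand, from RefSeq on build GRCm38.p6, at chr11:114989867-114990136 for Cd300ld, chr11:115026914-115027183 for Cd300ld4 and chr11:115133973-115134242 for Cd300lf. Capitals mark GAGGAAGT, a binding motif of PU.1, the factor that directs myeloid gene expression and is encoded by Spi1.
Cd300ld: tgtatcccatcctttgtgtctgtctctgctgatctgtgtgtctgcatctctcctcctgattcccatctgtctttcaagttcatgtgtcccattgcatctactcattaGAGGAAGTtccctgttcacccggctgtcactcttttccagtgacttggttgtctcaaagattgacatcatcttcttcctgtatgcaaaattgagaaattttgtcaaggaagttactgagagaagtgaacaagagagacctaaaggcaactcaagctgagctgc
Cd300ld4: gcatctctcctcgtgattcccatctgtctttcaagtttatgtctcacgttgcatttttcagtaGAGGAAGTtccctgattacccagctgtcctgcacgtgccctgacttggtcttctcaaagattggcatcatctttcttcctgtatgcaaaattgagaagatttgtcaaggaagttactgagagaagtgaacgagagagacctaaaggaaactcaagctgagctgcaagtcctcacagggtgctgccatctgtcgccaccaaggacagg
Cd300lf: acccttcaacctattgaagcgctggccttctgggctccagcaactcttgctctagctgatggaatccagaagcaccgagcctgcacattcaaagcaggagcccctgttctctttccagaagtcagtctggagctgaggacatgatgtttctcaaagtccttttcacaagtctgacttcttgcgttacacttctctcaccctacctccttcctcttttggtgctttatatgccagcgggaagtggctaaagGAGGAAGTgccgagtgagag

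GAGGAAGT was searched on both strands from 250 bases before to 50 bases after each start. It occurred in 1052 of 32851 windows (3.2%) and in those of 5 of the 10 Cd300 genes with a window, Cd300ld, Cd300ld3, Cd300ld4, Cd300ld5 and Cd300lf. The windows of Cd300ld, Cd300ld3, Cd300ld4 and Cd300ld5 were 87.1% to 100% identical to each other. Their matches are therefore not separate occurrences to set beside the share of all windows. In Cd300ld the match began 143 bases before the start, and in Cd300lf at the first base after it. It began 187 bases before the start in Cd300ld3, Cd300ld4 and Cd300ld5. Cd300a, Cd300lb and Cd300e had no match in this window, and Cd300lg had no entry. The motif was thus found both in the member that differed most and in one whose values spanned 0.19 log2 units. Matches to TTGCGCAA (a C/EBP motif, in 0.183% of windows), the longer string TTGCNNCAA (2.08%) and TGANTCA (AP-1, 7.81%) were found in 0 of the 10 windows. At these shares few or no matches would be met in 10 windows, so their absence says little. None of these letter strings contains another. Spi1 itself was at 13.10 and 11.03 in Ctrl-MI and 10.86 and 9.67 in TTg-MI (-1.81, SE 0.73, limma adjusted p = 0.607, and -0.77 without Ctrl-MI replicate 1). A match is a description of letters, and binding was not measured.

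Genes with sequences like that of Cd300ld could bear on what the Cd300ld probes read, but only promoter windows were compared. These lie mostly before the start of transcription, and neither transcript nor probe sequences were aligned. The Cd300ld window matched that of Cd300ld4 at 225 of 256 aligned bases (87.9%), against 159 of 250 (63.6%) for Cd300lf. The windows of Cd300ld4 and Cd300ld5 were identical over 300 bases, and Cd300ld3 matched them at 285 of 300. No probe here carried the name of Cd300ld3, Cd300ld4, Cd300ld5, Cd300c or Cd300ld2. Whether transcripts of these genes add to the Cd300ld signal was not analysed here, so the Cd300ld values are uncertain in that respect.

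Genes around Cd300ld on the chromosome did not share its size of difference. The cluster holds 11 Cd300 genes, of which 6 had a named probe, and Cd300lg lies apart from it with 146 protein-coding genes between. The cluster's measured gene outside the 6 members, Cd300c2, an activating receptor that pairs with DAP12, stood at 6.77 and 6.51 in Ctrl-MI and 6.66 and 6.12 in TTg-MI (-0.25, SE 0.23, limma adjusted p = 0.848). Its groups overlapped, and the difference ran from -0.52 to 0.02 with single arrays left out. Among 17 other genes, the 8 nearest with a probe on each side and Rab37 inside the cluster, differences ran from -0.77 to 0.34, with a median of -0.03. Of these, 0 passed limma over all probes (lowest adjusted p = 0.546, Benjamini-Hochberg). At an unadjusted p under 0.05, 5.07% of all probes were lower and 3.18% higher, and 1 of the 17 genes passed. That was Rpl38, a ribosomal protein gene, at 12.34 and 12.05 in Ctrl-MI and 11.24 and 11.61 in TTg-MI. Rab37, which shares its stretch of chromosome with Cd300lf, lay between 4.98 and 5.21, at the background level.

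**Figure D3:**
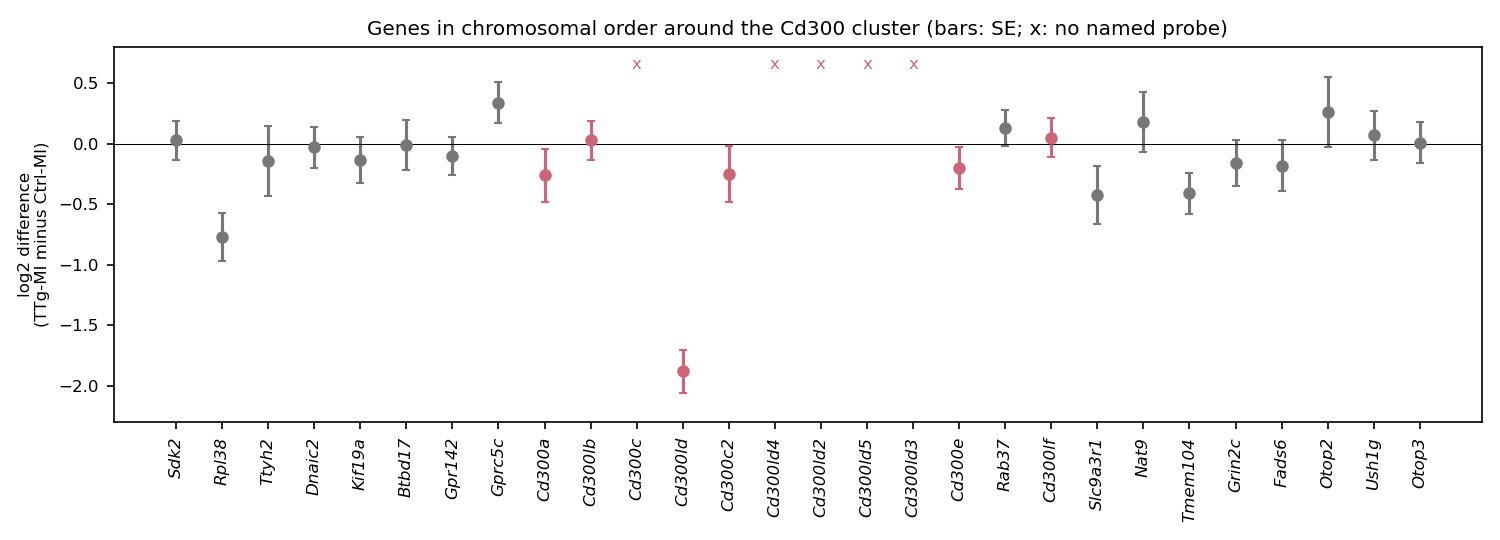
Log2 difference between TTg-MI and Ctrl-MI (vertical axis, with the SE of the fit as bars) for genes in chromosomal order around the cluster, Cd300 genes in red and others in grey, with crosses for Cd300 genes that had no named probe. Cd300ld at -1.88 lies below every other gene plotted, the next being Rpl38 at -0.77.

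The pattern of Cd300ld over the 4 arrays was set beside that of every gene whose mean reached the all-probe median, 10048 genes in all. Each profile was centred on the gene's own mean, and likeness is the root mean square distance in log2 units. The closest were Bcl2, an inhibitor of apoptosis (distance 0.12), Cpxm2, a carboxypeptidase-like protein (0.17), and Mmp3, the matrix protease stromelysin-1 (0.17). Bcl2 read 11.42 and 10.79 in Ctrl-MI and 9.31 and 9.35 in TTg-MI (-1.77, SE 0.24). Cpxm2 differed by -1.72 (SE 0.27) and Mmp3 by -1.90 (SE 0.28), each with a limma adjusted p of 0.53. The TTg-MI values of Mmp3 were 5.96 and 5.60, the latter at the background level, so the size of its difference is uncertain. The centred profile of Cd300ld is mostly its group difference, so the ranking picks genes with a like difference. The differences of these 3 genes are thus built in and are no separate result. With 4 arrays many genes have profiles near each other, and the other 5 members spanned less than 1 log2 unit and were not ranked.

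Macrophage markers were lower in TTg-MI together with Cd300ld, and for 11 of 14 the Ctrl-MI arrays lay farther apart than those of Cd300ld. The TTg-MI mean was lower for all 14 measured monocyte and macrophage markers (median log2 difference -1.00). The groups did not overlap for 13 of them, beside 18.7% of all probes. Leaving out Ctrl-MI replicate 1 made the median -0.56, and leaving out the other Ctrl-MI array made it -1.61. All 14 were above background on at least 1 array. The mean of the list was 9.68 and 8.65 on the Ctrl-MI arrays and 8.24 and 7.89 on the TTg-MI arrays. On Ctrl-MI replicate 2 the list stood 1.04 below Ctrl-MI replicate 1, nearer to the TTg-MI arrays, whereas Cd300ld was 0.33 lower there. The macrophage receptor gene Adgre1 was at 7.93 and 6.87 in Ctrl-MI and 6.46 and 6.16 in TTg-MI. The other 3 markers had Ctrl-MI arrays as close together as Cd300ld or closer. These were the monocyte antigen Ly6c2 (8.10 and 8.01 against 7.34 and 7.56), the chemokine receptor Ccr2 (5.79 and 5.72 against 5.30 and 5.29, above background on 1 array) and the haemoglobin scavenger receptor Cd163 (7.95 on both against 7.09 and 7.91). In limma 0 of the 14 passed over all probes. At an unadjusted p under 0.05 there were 9, all lower, beside 5.07% of all probes lower at that threshold. The Cd300lf and Cd300a differences were 0.05 and -0.26. How close the Cd300ld arrays lay was among the values seen when the gene was chosen. The part of the macrophage share in the differences of Cd300ld, Cd300lf and Cd300a was not tested.

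**Figure D4:**
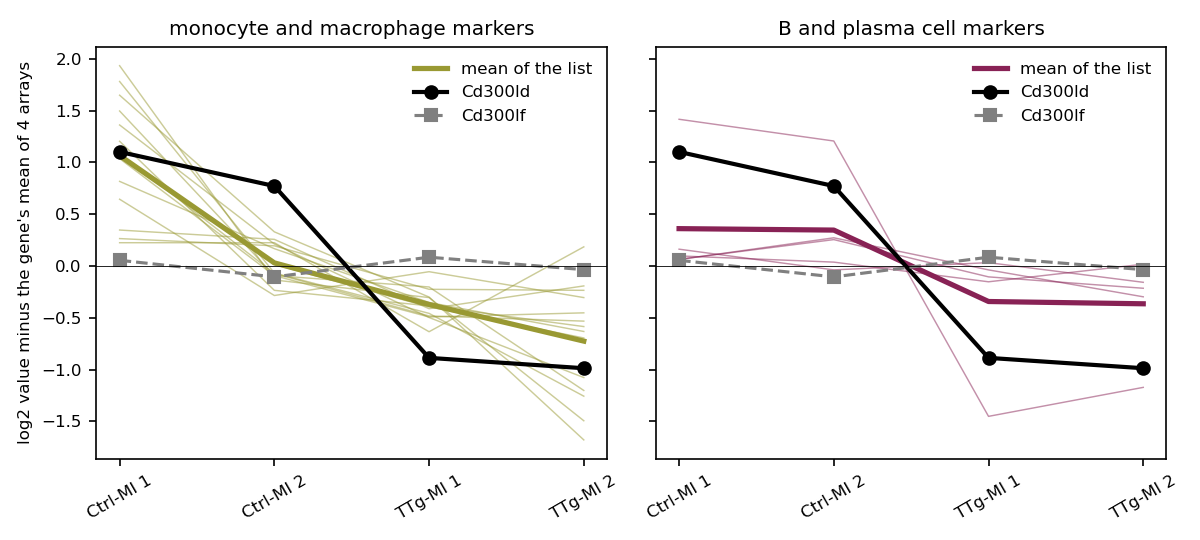
Log2 value minus the gene's mean of 4 arrays (vertical axis) on each array, for Cd300ld (black circles), Cd300lf (grey squares) and the markers of monocytes and macrophages (left) or B and plasma cells (right), with thin lines for single markers and thick lines for their mean. The macrophage mean reads 1.07 and 0.03 on the Ctrl-MI arrays and Cd300ld 1.10 and 0.77; the lines join arrays only to guide the eye.

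Other blood cell markers gave few readable values. Of 10 neutrophil markers 5 were above background on any array, and S100a8, S100a9, Cxcr2, Mmp8 and Ngp were not. Neutrophil list means lay between 5.59 and 5.68 in Ctrl-MI and between 5.55 and 5.76 in TTg-MI. Mast cell list means lay between 5.46 and 5.71 in Ctrl-MI and 5.70 and 5.81 in TTg-MI, with 4 of 7 above background on any array, and Mcpt4, Cma1 and Ms4a2 on none. For dendritic cells 3 of 8 and for T and NK cells 3 of 8 were above background on any array. B and plasma cell list means were 6.30 and 6.32 in Ctrl-MI and 5.59 and 5.61 in TTg-MI, with 3 of 5 above background on any array. The widest gap of this list was in Jchain, the joining chain of secreted antibodies, at 8.72 and 8.51 against 5.85 and 6.13 (-2.63, SE 0.18, limma adjusted p = 0.134). Over the other 4 genes of the list the means were 5.72 and 5.75 in Ctrl-MI and 5.55 and 5.46 in TTg-MI, near the background level. Fibroblast list means, from 12.81 to 13.56 in Ctrl-MI and from 11.24 to 12.35 in TTg-MI, were also separate, with 7 of 7 markers lower. The groups did not overlap for any of the 7, beside 18.7% of all probes lower without overlap. Their median log2 difference was -1.30, or -0.68 without TTg-MI replicate 2. By the distance used above, the centred mean of this list lay as near to Cd300ld (0.46) as that of the macrophage markers (0.47). The B and plasma cell list lay at 0.59. The part of these cell types in the Cd300ld difference was not tested.

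Genes of Cd300 signalling and related receptors were read from the same fit. Of 67 names written, 56 had a named probe. Of these, 27 are other paired receptors of myeloid cells, 3 are Ig-fold relatives and 1 is Cd300c2, and the rest are adaptors, effectors, ligands and partners (Trem2 stands in the lists of partners and of paired receptors). The TTg-MI mean was lower for 44 of the 56, and the median log2 difference was -0.26. The groups lay apart with TTg-MI lower for 31 of them and higher for 3, beside 18.7% and 19.4% of all probes. With single arrays left out, 42 to 49 of the 56 had a lower TTg-MI mean. In limma 0 passed over all probes with Benjamini-Hochberg adjustment. At an unadjusted p under 0.05 there were 13 lower and 1 higher, beside 5.07% and 3.18% of all probes. An ordinary linear model also called 0 after adjustment and gave 4 at an unadjusted p under 0.05. All of these genes share the same 4 arrays.

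**Figure D5:**
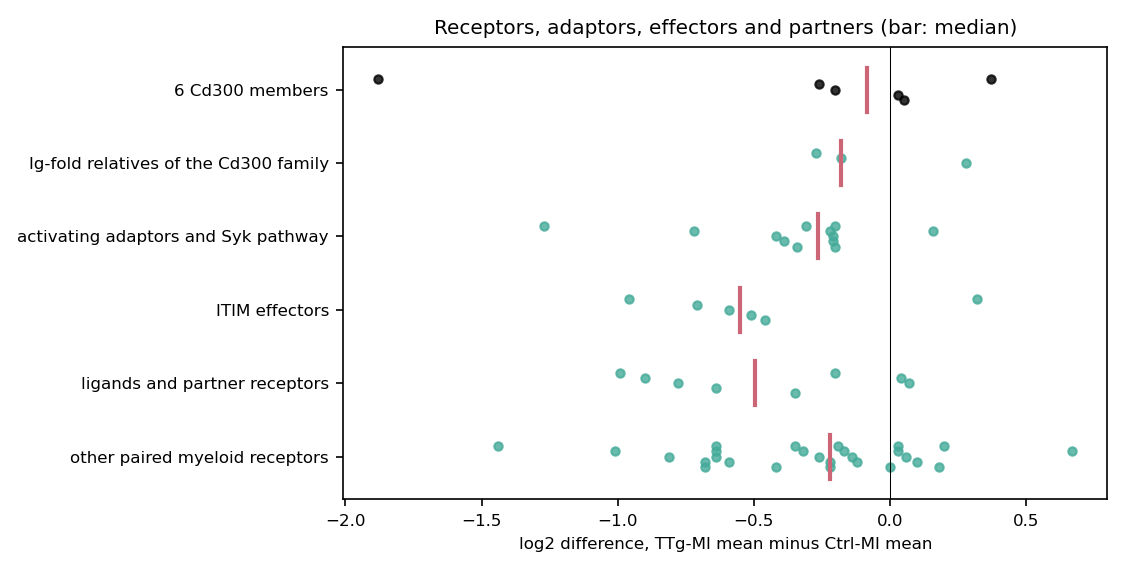
Log2 difference between the TTg-MI and Ctrl-MI means (horizontal axis) of each measured gene in the groups named on the vertical axis, with a red bar at the median of each group. The 6 Cd300 members have a median of -0.09 with Cd300ld far to the left, and the adaptors, effectors and partners have medians of -0.26, -0.55 and -0.49.

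Among the activating adaptors, Fcer1g, the Fc receptor gamma chain that Cd300ld uses, was at 9.81 and 8.61 in Ctrl-MI and at 7.97 and 7.91 in TTg-MI. The groups were separate, with Ctrl-MI replicate 1 the highest. The difference was -1.27 (SE 0.39, limma adjusted p = 0.555). Leaving out Ctrl-MI replicate 1 brought it to -0.67. Leaving out Ctrl-MI replicate 2 brought it to -1.86, where the adjusted p in limma was 0.0309 with the spread taken from the TTg-MI pair alone, and over all settings run the adjusted p was 0.0309 to 1.0. Tyrobp, which encodes DAP12, overlapped between the groups at 7.43 and 6.45 against 6.46 and 5.99 (-0.72, SE 0.36, limma adjusted p = 0.665), and differed by -0.23 without Ctrl-MI replicate 1. Hcst, the adaptor DAP10, was at the background level on all arrays.

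Downstream of the adaptors, the kinase Syk ran from 8.55 to 8.94 over the 4 arrays, a difference of -0.20 (SE 0.18). The exchange factor Vav1 was at 6.43 and 6.50 against 5.96 and 6.13 (-0.42, SE 0.16), and the phospholipase Plcg2 at 6.54 and 6.66 against 6.41 and 6.10 (-0.34, SE 0.18). Card9, a scaffold that links Syk to NF-kappaB, was the 1 gene of this list of 12 with a higher TTg-MI mean (0.16, SE 0.25). With single arrays left out Syk ran from -0.38 to -0.03, Plcg2 from -0.50 to -0.19 and Card9 from -0.14 to 0.46. The list's median was -0.26. At an unadjusted p under 0.05 there were 2 of the 12, both lower, beside 5.07% of all probes lower at that threshold.

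The ITIM effectors had a median of -0.55 over 6 genes, of which 5 had a lower TTg-MI mean. Dok1, an adaptor that dampens kinase signalling, was at 7.35 and 6.73 in Ctrl-MI and 6.16 and 6.01 in TTg-MI (-0.96, SE 0.24, limma adjusted p = 0.546). Its relative Dok2 differed by -0.59 (SE 0.24). The lipid phosphatase Inpp5d (SHIP1) read 8.53 and 7.46 against 7.31 and 7.25, and Csk, a kinase that restrains Src family kinases, differed by -0.46 (SE 0.24). Ptpn6, the phosphatase SHP-1 that Cd300a and Cd300lf recruit, overlapped at 6.70 and 5.79 against 5.85 and 5.62 (-0.51, SE 0.32). Ptpn11, the related SHP-2, was at 9.60 and 10.11 against 10.27 and 10.09 (0.32, SE 0.22). Without Ctrl-MI replicate 1 the Inpp5d difference was -0.18, the Ptpn6 difference -0.05, the Dok2 difference -0.33, the Ptpn11 difference 0.07 and the list's median -0.26. Without Ctrl-MI replicate 2 that median was -0.91. Csk differed by -0.16 without TTg-MI replicate 1.

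The 8 ligands and partner receptors had a median of -0.49, and 6 were lower on average in TTg-MI. The endotoxin receptor genes Cd14 and Tlr4, whose products Cd300lb is known to join, had TTg-MI values below both of their Ctrl-MI values. Cd14 was at 8.22 and 7.57 against 7.05 and 6.77 (-0.99, SE 0.26) and Tlr4 at 11.40 and 10.48 against 10.18 and 9.90 (-0.90, SE 0.33). Il4ra, a receptor chain that Cd300lf is known to associate with, was at 9.20 and 8.45 against 8.26 and 7.83 (-0.78, SE 0.30), and Trem2, a lipid receptor of macrophages, differed by -0.64 (SE 0.24). Their limma adjusted p lay between 0.546 and 0.590. Without Ctrl-MI replicate 1 Tlr4 differed by -0.44 and Il4ra by -0.41, and without TTg-MI replicate 2 Trem2 differed by -0.33. The Cd300lb ligand Havcr1 (TIM-1) and the alarmin genes S100a8 and S100a9 were not above background on any array. Cd14, S100a8 and S100a9 also stand among the cell type markers above.

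Other paired receptors of myeloid cells were mixed. Of 27 measured, 20 had a lower and 7 a higher TTg-MI mean, and their median difference was -0.22. The groups lay apart with TTg-MI lower for 13 and higher for 2, beside 18.7% and 19.4% of all probes. At an unadjusted p under 0.05 there were 7 lower and 1 higher, beside 5.07% and 3.18% of all probes. Clec4n, which encodes the fungal receptor Dectin-2, had Ctrl-MI and TTg-MI arrays that lay apart, at 7.31 and 7.04 in Ctrl-MI and 6.18 and 6.16 in TTg-MI (-1.01, SE 0.17, limma adjusted p = 0.530). The inhibitory receptor Clec12a was at 6.34 and 6.23 against 5.61 and 5.34, the latter at the background level. Lilrb4a, an ITIM receptor, was at 10.13 and 9.16 against 8.57 and 7.83 (-1.44, SE 0.39). Treml2 went the other way, at 6.74 and 6.55 against 7.20 and 7.44 (0.67, SE 0.17, limma adjusted p = 0.546). The Ig-fold relatives Fcamr and Fcmr, receptors for IgM, differed by 0.28 (SE 0.19) and -0.18 (SE 0.19). With single arrays left out they ran from 0.10 to 0.47 and from -0.35 to -0.01. The antibody transporter gene Pigr was at background.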

How the data were processed

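The members and gene lists were chosen with earlier results of these data known. The authors deposited 1 value per transcript cluster (probe), read here as log2 because of their range. Per the submitters' processing notes the software was Affymetrix Expression Console 1.4, and the normalization, summarization and genome build are not given in the sources used here. Gene names came from the platform annotation, in which 19572 of 22206 probes had 1 gene symbol and 2634 were unnamed here, and each member had 1 probe. Named genes were the members, up to 4 genes with the smallest p in each list among those above background on at least 2 arrays, chromosomal neighbours and the 3 genes most alike in profile. Others, such as Card9, Syk, Ptpn6, Ptpn11, Hcst and single markers, were named after their values were seen. List genes with no named probe were not used here.

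All probes were fitted in limma 3.58.1 (R 4.3.3; lmFit, eBayes with default settings, two-sided) on the values as deposited, with no filter, and adjusted by Benjamini-Hochberg over all probes. At this group size the smallest p of an exact permutation test (two-sided) is 0.333. The number of arrays limits the precision. The fit was tested on simulated data with independent noise on each array. Deviations shared by many genes of an array were not simulated, so that test does not cover them. Alternatives were other normalizations, a dim-probe filter, other variance models, the replicate number as a block, and leaving out each array. The reference tables held no proteins, so protein features were not analysed here.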

Additional observations from a re-analysis of the deposited data

How the results depend on the processing

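With all arrays, 1 probe passed limma over all probes. This number was 4 with a robust prior that follows intensity, 0 in an ordinary linear model (1241 probes at an unadjusted p under 0.05), and 1 to 332 with single arrays left out, the highest without Ctrl-MI replicate 2. The replicate numbers are not stated to pair the hearts, and the deviations of same-numbered arrays correlated at 0.163 across probes. With the replicate number as a block the count was 7, and no call among the pathway genes changed. The pathway genes that passed numbered 0 in all fits except without Ctrl-MI replicate 2, where Fcer1g made it 1, so that leaving out single arrays gave 0 to 1. At an unadjusted p under 0.05 they were 14 with all arrays, 4 in the ordinary linear model, and leaving out single arrays gave 5 to 20. The Cd300ld difference ran from -1.88 to -1.85 under the other settings with all arrays. With the arrays' lower quartiles as the background level, 5 members in place of 4 were above it on at least 2 arrays. Leaving an array out of the marker lists, and Jchain out of its list, was chosen after seeing the data. A group left with 1 array is assumed to vary like the other. Without Ctrl-MI replicate 2 the median of the macrophage markers was -1.61 and that of the ITIM effectors was -0.91, and with dim probes filtered out that of the Ig-fold relatives was 0.05. With 2 arrays a group and values near background, differences of Cd300lb and Cd300e could not be read.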
